A study of Mus musculus with 5 samples.

Results

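Squamous cells of chemotherapy-treated mouse colon tumors were compared here between day 1 and day 6, in the 2 tumor libraries that share the dual index library structure. A cell barcode was kept with at least 500 genes and at most 15% mitochondrial counts. It was called squamous with at least 10 raw counts (UMIs, unique molecular identifiers) of Krt5 and Krt14 together, more of these than of Krt8, Krt18 and Lgals4 together, and fewer than 3 UMIs over Ptprc, Tyrobp, Csf3r, Pecam1, Cdh5 and Dcn. The cells were thus chosen on measured values of these 11 genes, whose levels are given only as a description. Of 5229 kept cells in the 2 libraries, 809 were squamous, 170 of 2403 in day 1 replicate 2 and 639 of 2826 in day 6. The series holds 8491 kept cells in 5 libraries.

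Droplet single-cell RNA libraries (inDrop) were made from the epithelial fraction of colon tumors of wild-type (WT) mice. All of these mice had received AOM, a carcinogen, and DSS, which causes colitis, and then repeated cycles of Irinotecan followed by 5FU (fluorouracil), so both sides of the comparison are treated and differ in the labelled day, 1 or 6. The study describes these days both as the length of treatment and as the time after the last cycle, and which of these holds could not be settled here. No untreated tumor is compared. The study's mice were of both sexes, on a pure or mixed C57BL/6J background, and young adults at the start, while the sex, background and age at harvest of each library are not given in the sources used here. Day 1 replicate 1 and day 3 came from the single index structure and another sequencer, and their values stand beside the main pair. With 1 library a side, differences have no replicate check and no p-value. Whether a library held tumors of 1 mouse or more is not given. Intervals cover counting error only.

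Squamous cells had UMI medians of 2587 in day 1 replicate 2 and 5939 in day 6, whereas columnar cells (the reverse rule) had 5898 and 2632. The order of the types by depth was therefore opposite in the 2 libraries. Summed over cells, squamous UMIs were 914292 and 4201414. The transcript Xist, made from the inactive X chromosome, had 2 and 1630 UMIs over all kept cells, and the Y-linked Uty 1570 and 8, while day 1 replicate 1 had none and 356, and day 3 had 181 and 19. By these transcripts sex and day of harvest cannot be told apart between day 1 and either later day. The 2 libraries shared 42 barcodes, of which 1 was squamous in both. Mitochondrial counts had a median of 2.21% of UMIs in day 1 squamous cells and 1.07% in day 6, and of 2.90% and 0.811% in columnar cells. Whether depth, sex or RNA quality had a part in the differences below was not tested.

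A stratified squamous epithelium is renewed by basal cells that hold on to the basement membrane through hemidesmosomes, in which the integrin Itga6 and collagen XVII take part. Daughter cells move up, exchange basal keratins for suprabasal ones, and close the surface with a cornified envelope of cross-linked small proteins. Wounded epithelium switches on the keratins Krt6, Krt16 and Krt17, and spreads over new matrix. The colon is normally lined by a single columnar layer, so squamous cells in a colon tumor stand beside an epithelium of another kind.

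The squamous label was checked against 15 markers that the choice of cells did not use. In each treated library 14 of 15 were higher in squamous than in columnar cells, and 13 of 15 were over 2 times higher in both dual index libraries. Itgb4 was at 0 UMIs in squamous cells of both, Krt15 fell short of that ratio in day 1 replicate 2 and Sfn in day 6. Near the limit of 10 UMIs, 7 cells of day 1 replicate 2 had 10 to 12 UMIs of the 2 keratins and 5 had 7 to 9 while meeting the other conditions. In day 6 there were 31 and 22 such cells. The median squamous cell held 43 and 78 UMIs of the pair. A further 39 and 302 cells with 10 UMIs or more failed because their columnar sum was as high or higher. Among the squamous cells, 28 of 170 and 66 of 639 had a columnar sum over 0.5 times the Krt5 and Krt14 sum. No doublet caller was run, and free RNA was not subtracted. The same rule found no squamous cell among 1095 kept cells of the untreated stroma library.

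Levels are CPM (UMIs per 1000000 UMIs of the summed squamous cells), and a change is the log2 ratio of day 6 over day 1 replicate 2 after adding 10 CPM to each. Genes were compared where the mean of the 2 CPM was at least 50 (the expression limit), and counted as higher or lower in day 6 where the log2 change was at least 1 in size (the fold limit). Of 3825 genes over the expression limit, 180 were higher in day 6 (4.71%) and 232 were lower (6.07%), with a median change over all genes of -0.06. Among the 180 higher genes, 164 had a day 6 level above both day 1 libraries, but 70 were higher past the fold limit against day 1 replicate 1. Among the 232 lower genes, 186 lay below both day 1 libraries and 62 were lower past the fold limit against replicate 1. The 2 day 1 libraries, compared with each other in the same way, differed past the fold limit in 492 of 3945 genes, 224 higher and 268 lower in replicate 2. Between the days the number was 412, so 2 libraries of the same day differed in as many genes as the libraries of day 1 and day 6. A gene with low counts at day 1 can pass the expression limit only through its day 6 level and then has to differ, so the counts over gene lists below are descriptions and cover only the members named as over that limit.

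The basal keratins did not move as one. Krt14, a basal keratin used by the rule, was at 18967 CPM in day 1 replicate 2 and 9814 CPM in day 6, and its partner Krt5 at 7079.8 CPM in day 1 replicate 2 and 6702 CPM in day 6. Krt15, a keratin of basal and stem cells in stratified epithelia, was at 84.2 CPM in day 1 replicate 2 and 2456 CPM in day 6 (log2 change 4.71, 95% counting interval of the ratio 4.54 to 5.21). Its level was 556 CPM in day 1 replicate 1 and 1748 in day 3, so both later libraries lay above both day 1 libraries. Krt17, a keratin of appendages and of wounded epithelium, was the other way round, with 2440.1 CPM in day 1 replicate 2 and 523 CPM in day 6 (log2 change -2.20, -2.31 to -2.14). Day 1 replicate 1 held 975 CPM of Krt17 and day 3 1366, so the single index pair ran in the opposite direction. In columnar cells Krt17 was at 26.9 and 37.4 CPM.

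Transcription factors of squamous identity differed less than the keratins. Trp63, required for stratified epithelia, was at 249 CPM in day 1 replicate 2 and 409 CPM in day 6 (log2 change 0.69), within the fold limit, and at 414 and 153 CPM in day 1 replicate 1 and day 3. Pitx1, a homeobox factor known from the hindlimb, was at 309.5 CPM in day 1 replicate 2 and 391 CPM in day 6 (0.33). Sox2, a factor of esophageal and other stratified progenitors, passed the fold limit with 79.8 CPM in day 1 replicate 2 and 209 CPM in day 6 (1.29, 1.05 to 1.76). Its 145 CPM in day 1 replicate 1 and 98.4 CPM in day 3 lay between them, and this single index pair ran in the opposite direction. Of the 24 factors listed, 17 were over the expression limit, and of these 3 were higher (Sox2, Barx2 and Hopx) and 1, the BMP target Id3, was lower, with a median of 0.29.

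Most other genes of the basal layer were lower in day 6. Of 20 in the list 16 were over the expression limit, 2 of them higher (Krt15 and Sox2) and 10 lower, among them Cav1 (101 and 17.6 CPM), Cdh3 (-1.30) and Itgb1 (-1.08), with a median change of -1.19 against 0.09 for the same genes in columnar cells. Over all genes 4.71% were higher and 6.07% lower. The laminin chains Lama3 and Lamb3, which basal cells lay down in the basement membrane, were among the 15 genes with the lowest changes. Lama3 was at 965 CPM in day 1 replicate 2 and 93.1 CPM in day 6 (log2 change -3.24, -3.55 to -3.20) and Lamb3 at 827 CPM in day 1 replicate 2 and 90.4 CPM in day 6 (-3.06, -3.37 to -3.01). Both chains were high in day 1 replicate 2 alone, since replicate 1 held 244 and 173 CPM of them and day 3 396 and 169. In columnar cells the changes were -0.45 and -0.36. The anchoring collagen Col17a1 was at 527 CPM in day 1 replicate 2 and 149 CPM in day 6 (-1.75), with 392 and 267 CPM in day 1 replicate 1 and day 3, and both of these lay between the dual index pair. The laminin receptor subunit Itga6 had 1328 CPM against 447 (-1.55), and 639 and 565 in the single index libraries. Of 9 hemidesmosome genes 8 were over the expression limit, 5 of them lower and none higher, while Plec (-0.88), Cd151 (0.07) and Dst (0.55) did not pass the fold limit. None of the 8 desmosome genes over the expression limit, whose products join the cells to one another, passed the fold limit in either direction (median -0.28). Against day 1 replicate 1 the basal layer list had 1 higher and 2 lower members and a median of -0.34.

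**Figure D1:**
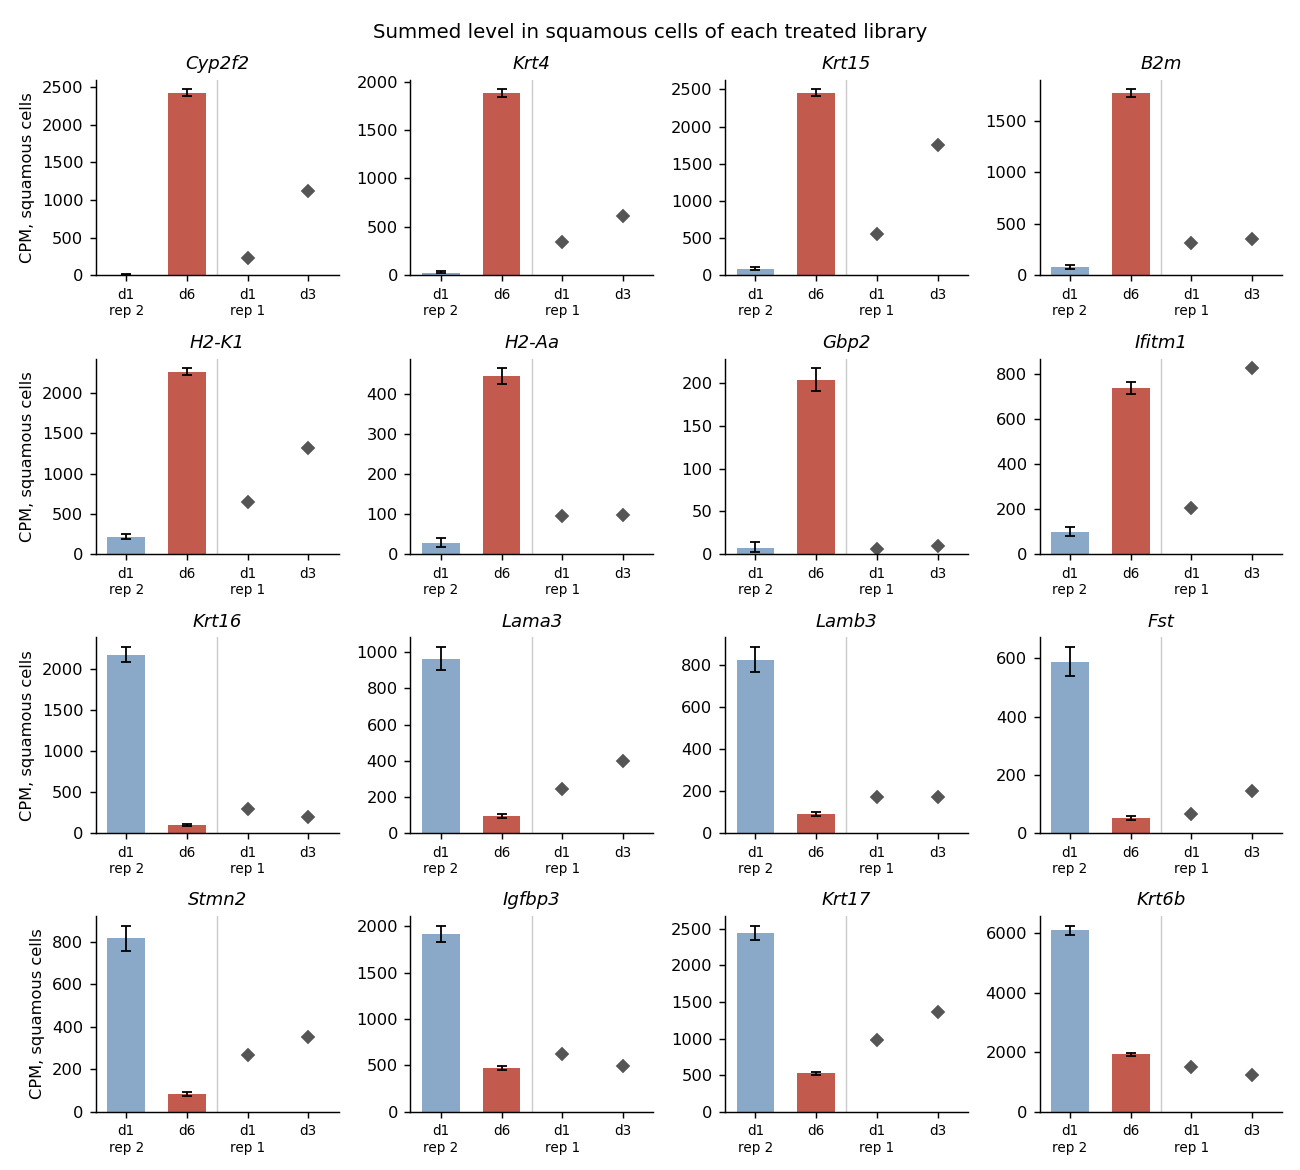
CPM of 16 genes over the summed squamous cells of each treated library, with a panel per gene with its own axis from 0. Bars are the dual index pair (day 1 replicate 2 and day 6) with exact 95% Poisson intervals for counting error, diamonds the single index libraries (day 1 replicate 1 and day 3). The 8 genes of the upper 2 panel lines are higher in day 6 than in both day 1 libraries. For Krt16, Lama3, Lamb3, Fst, Stmn2, Igfbp3 and Krt17 the diamond of day 1 replicate 1 lies nearer to day 6 than to the other day 1 library. For Krt6b it lies below day 6.

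Suprabasal keratins parted into those of wounded and those of surface epithelium. Krt16, a keratin of wounded and hyperproliferative epithelium, was at 2176 CPM in day 1 replicate 2 and 97.6 CPM in day 6 (log2 change -4.34, -4.64 to -4.32), and at 293 and 195 CPM in day 1 replicate 1 and day 3. Its usual partners Krt6a and Krt6b, near-identical copies between which reads can be split, were at 16443 CPM in day 1 replicate 2 and 6611 CPM in day 6 (-1.31) and at 6102 CPM in day 1 replicate 2 and 1927 CPM in day 6 (-1.66). For Krt6b the 1509 CPM of replicate 1 and 1228 of day 3 lay below day 6, so day 6 was lower against replicate 2 only. Krt6a had 10794 and 7047 CPM there, so both day 1 libraries lay above both later ones. Krt4, a keratin of wet stratified epithelia such as esophagus, was at 27.3 CPM in day 1 replicate 2 and 1882 CPM in day 6 (5.66, 5.54 to 6.73), with 343 and 614 CPM in the single index libraries. Krt13, which pairs with Krt4, was at 1612 CPM in day 1 replicate 2 and 6707 CPM in day 6 (2.05), but at 4648 and 4242 CPM in replicate 1 and day 3, between the pair and nearer to day 6.

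Of 20 suprabasal genes 15 were over the expression limit, 6 of them higher and 4 lower, with a median of -0.08 in squamous and 1.18 in columnar cells. Against day 1 replicate 1 the list had 2 higher and 5 lower (median -0.03). Krt10, the suprabasal keratin of skin, had 19.7 CPM against 152 (2.45), and 12.3 and 139 in day 1 replicate 1 and day 3. Krtdap, a secreted protein of differentiating keratinocytes, was at 35 CPM in day 1 replicate 2 and 364 CPM in day 6 (3.06), yet 1209.9 CPM in day 1 replicate 1 was the highest of the 4 libraries. Lgals7, a galectin of stratified epithelia, was at 311 CPM in day 1 replicate 2 and 1381 CPM in day 6 (2.12), with 963 CPM in day 1 replicate 1. Sfn, the 14-3-3 protein of keratinocytes, was lower with 1499.5 CPM in day 1 replicate 2 and 695 CPM in day 6 (-1.10).

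Of 29 measured cornified envelope genes 14 were over the expression limit, 5 of them higher and 2 lower (median 0.52). The Sprr2a copies, envelope precursors between which counts can be split, were higher, Sprr2a1 with 3001 CPM in day 1 replicate 2 and 8852 CPM in day 6 (1.56). Columnar cells held more of it, 7789.5 and 27045 CPM (1.79), and squamous cells of day 3 held 15997 CPM. Cnfn, a component of the envelope, was at 42.7 CPM in day 1 replicate 2 and 211 CPM in day 6 (2.07), and the plakin Ppl at 64.5 CPM in day 1 replicate 2 and 155 CPM in day 6 (1.15) while Ppl changed by -0.86 in columnar cells. The cross-linking enzyme Tgm1 was lower, with 355 CPM in day 1 replicate 2 and 127 CPM in day 6 (-1.41), and Anxa1, an annexin of the envelope and of inflammation, did not reach the fold limit at 8275 CPM in day 1 replicate 2 and 4233 CPM in day 6 (-0.97). Day 1 replicate 1 and day 3 held 2080 and 926 CPM of Anxa1, both below day 6, and 40.1 and 12.6 CPM of Cnfn. Against day 1 replicate 1 the list had 4 higher and none lower (median 0.56).

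**Figure D2:**
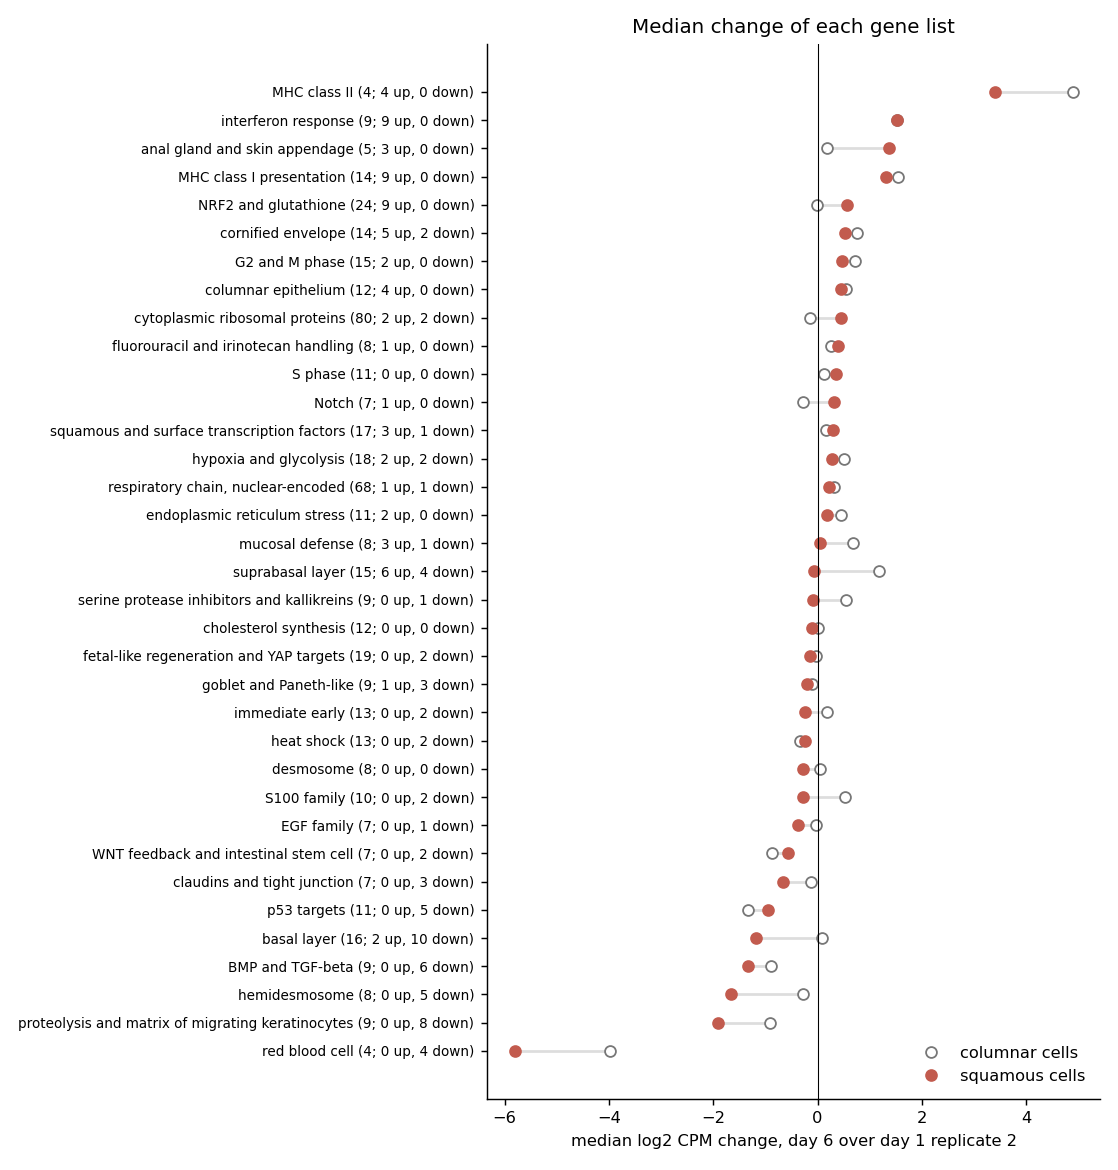
Median log2 CPM change, day 6 over day 1 replicate 2, of each gene list with at least 4 members over 50 CPM, in squamous cells (filled) and for the same genes in columnar cells (open). Brackets give the number of members and how many were at least 1 up or down in squamous cells; the lists of migrating keratinocyte matrix, hemidesmosome and basal layer lie further left in squamous than in columnar cells, and the MHC class II list lies right in both.

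Genes of spreading keratinocytes were mostly lower. Of 21 measured genes for proteolysis and matrix of migrating keratinocytes 9 were over the expression limit. Of these, 8 were lower and none higher, beside 6.07% of all genes lower. The list median was -1.91, and columnar cells gave a median of -0.92 for the same genes. Tnc, a matrix glycoprotein of healing wounds, was at 214 CPM in day 1 replicate 2 and 44.5 CPM in day 6 (-2.04) and the collagen receptor Itga2 at 114 CPM in day 1 replicate 2 and 22.1 CPM in day 6 (-1.95). Cd44, the hyaluronan receptor, had 1341 CPM against 526 (-1.33), and changed by -1.81 in columnar cells. Against day 1 replicate 1, 1 member was lower past the fold limit, with a median of -0.56.

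Fst, a secreted protein which binds and blocks activin, was at 588 CPM in day 1 replicate 2 and 51.6 CPM in day 6 (log2 change -3.28, -3.74 to -3.28), and Inhba, the activin subunit itself, at 158 CPM in day 1 replicate 2 and 7.85 CPM in day 6 (-3.23, -4.92 to -3.77). Day 1 replicate 1 held 64.8 CPM of Fst and 3.09 of Inhba, both near day 6. Fst was also lower in columnar cells (67.9 to 8.76 CPM, -2.05), whereas Inhba was under the expression limit there. Of 18 BMP and TGF-beta genes 9 were over the expression limit, 6 of them lower and none higher, beside 6.07% of all genes lower. The list median was -1.32, and against replicate 1 it was -0.12 with 1 lower. Ptgs2, the inducible cyclooxygenase of prostaglandin synthesis, was at 167 CPM in day 1 replicate 2 and 9.52 CPM in day 6 (-3.18). Day 1 replicate 1 and day 3 held 12.3 and 8.83 CPM of Ptgs2, both near day 6. The transcript U90926 was at 1205 CPM in day 1 replicate 2 and 129 CPM in day 6 (-3.12) and Stmn2, a microtubule regulator known from neurons, at 815 CPM in day 1 replicate 2 and 83.8 CPM in day 6 (-3.14), and columnar cells held 24.6 and 20.3 CPM of the one and 10.8 and 9.50 of the other. In day 1 replicate 1 and day 3 U90926 was at 549 and 201 CPM and Stmn2 at 269 and 349, all between the dual index pair. Igfbp3, which binds insulin-like growth factors, was at 1914 CPM in day 1 replicate 2 and 467 CPM in day 6 (-2.01) and also lower in both single index libraries, at 617 and 498 CPM. The cholesterol esterifying enzyme Soat1 was at 299.7 CPM in day 1 replicate 2 and 22.4 CPM in day 6 (-3.26), with 30.9 CPM in replicate 1. For Fst, Inhba, Ptgs2, Igfbp3 and Soat1 day 1 replicate 2 was thus the library that stood apart. Tgfa, a ligand of the EGF receptor, had 135 CPM against 35.5 (-1.67) and 52.5 in replicate 1.

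Of 16 chemokines 2 were over the expression limit, Cxcl5 and Cxcl3, which attract neutrophils, and both were lower. With no expression limit the median of the list was 0.05, and against day 1 replicate 1 neither passed the fold limit. Cxcl5 was at 2634 CPM in day 1 replicate 2 and 832 CPM in day 6 (-1.65) and Cxcl3 at 410.1 CPM in day 1 replicate 2 and 68.5 CPM in day 6 (-2.42), while day 1 replicate 1 and day 3 held 790.2 and 958 CPM of Cxcl5 and 102 and 50.4 of Cxcl3. Ppbp, a further chemokine of this family, was at 6693 CPM in day 1 replicate 2 and 2824 CPM in day 6 (-1.24) but only at 377 CPM in replicate 1. In columnar cells Cxcl5 changed by 1.04 and Ppbp by 2.45, opposite to squamous cells. The summed neutrophil list, of which all 10 measured genes had a UMI in both squamous sums, stood at 254 and 51.2 CPM in squamous cells and at 12707 and 3249 CPM in non-epithelial cells. Its part in the chemokine values was not tested.

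Several enzymes that handle xenobiotics and oxidants were higher in day 6. The widest change among the 3825 genes was that of Cyp2f2, a cytochrome P450 known from airway club cells, with 6 UMIs (6.56 CPM) in day 1 replicate 2 and 10190 UMIs (2425 CPM) in day 6 (log2 change 7.20). The counting interval of the ratio without the added 10 CPM was 7.41 to 9.98. Day 1 replicate 1 held 231 CPM and day 3 1122, so both later libraries were above both day 1 libraries. Aldh3a1, an aldehyde dehydrogenase of cornea and upper airway, was at 9.84 CPM in day 1 replicate 2 and 238 CPM in day 6 (3.65), with 182 and 211 CPM in the single index libraries, near day 6. Cbr2, a carbonyl reductase of lung, was at 106 CPM in day 1 replicate 2 and 1874 CPM in day 6 (4.02, 3.85 to 4.45), again with 333 and 792 CPM between. For all 3 enzymes day 1 replicate 2 was the lowest and day 6 the highest of the 4 libraries. The rise was not confined to squamous cells. Changes in columnar cells were 4.33 for Cyp2f2, 3.87 for Cbr2 and 2.025 for Aldh3a1, the last under the expression limit there. In non-epithelial cells they were 4.61, 3.94 and 1.80. The part of free RNA in these values was not tested.

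Of 33 NRF2 and glutathione genes 24 were over the expression limit, 9 of them higher and none lower, beside 4.71% of all genes higher. The list median was 0.57, while the same genes had a median near 0 in columnar cells. Gstm1, a glutathione transferase, was at 60.2 CPM in day 1 replicate 2 and 279.7 CPM in day 6 (2.05), and Gsto1, the most abundant of the list, at 4729 CPM in day 1 replicate 2 and 9743 CPM in day 6 (1.04). Gsto1 was at 3105 and 3359.5 CPM in day 1 replicate 1 and day 3, both below day 1 replicate 2. The metal-binding Mt2 was at 423 CPM in day 1 replicate 2 and 1239 CPM in day 6 (1.53) in squamous cells and at 615 and 164 CPM (-1.84) in columnar cells. Enzymes at the core of the oxidant defense, Gsr (-0.76), Txnrd1 (-0.64) and Gclc (0.62), did not pass the fold limit. Against day 1 replicate 1 the count over the list was 3 higher and 2 lower. Among the 8 genes of 5FU and Irinotecan handling over the expression limit 1 was higher, Dpyd, which breaks down 5FU, with 52.5 CPM in day 1 replicate 2 and 145 CPM in day 6 (1.31) and 52.5 and 39.1 CPM in the single index libraries. The Irinotecan target Top1 was at 233 CPM in day 1 replicate 2 and 148 CPM in day 6 (-0.62).

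Most of the listed antigen presentation and interferon genes over the expression limit were higher in day 6. Trim30a, interferon-inducible but outside these lists, was lower and is described further below. Of 42 interferon response genes 9 were over the expression limit and these 9 were higher (median 1.53), beside 4.71% of all genes. A further 12 of the 42 had no UMI in squamous cells of day 1 replicate 2, and none was at 0 in day 6, whose summed squamous UMIs were deeper. Of 23 MHC class I presentation genes 14 were over the expression limit, 9 of them higher and none lower (median 1.32), and of 9 MHC class II genes the 4 over it were higher (median 3.41). Columnar cells gave medians of 1.53, 1.55 and 4.89 for these genes, and non-epithelial cells 1.11, 1.14 and 2.20, so the medians had the same direction in all 3 cell types. Single genes did not always follow. In columnar cells the interferon list had 5 higher and 1 lower past the fold limit. Ifitm1, Ifitm2 and Ifitm3 changed there by -0.30, -0.79 and -1.13. Against day 1 replicate 1 the interferon list had 5 higher and none lower (median 1.28), the class I list 7 higher and 1 lower (median 0.77), and the class II list 3 higher and none lower (median 1.43).

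B2m, the light chain of every class I molecule, was at 80.9 CPM in day 1 replicate 2 and 1766 CPM in day 6 (log2 change 4.29, 4.12 to 4.80), with 315 and 352 CPM in day 1 replicate 1 and day 3. The class I heavy chain H2-K1 was at 214 CPM in day 1 replicate 2 and 2266 CPM in day 6 (3.34) and at 642 and 1315 CPM in the single index libraries. H2-Q7, a non-classical class I gene with close copies, had no UMI in day 1 replicate 2 and 132 CPM in day 6, at least 40.3-fold higher against a floor of 3 UMIs (the class I median was 1.32 with the gene at this bound as well). The class II chain H2-Aa was at 27.3 CPM in day 1 replicate 2 and 444 CPM in day 6 (3.60) in squamous cells, with 95.7 and 97.1 CPM in day 1 replicate 1 and day 3, and at 35.9 and 1578 CPM (5.11) in columnar cells. Non-epithelial cells of day 6 held 5507 CPM of H2-Aa and 3755 of B2m, above the squamous levels. The part of free RNA in the squamous values was not tested. The squamous level of H2-K1 lay below that of columnar cells (3362 CPM) in day 6 as well.

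Gbp2, a guanylate-binding protein induced by interferon, was at 6.56 CPM in day 1 replicate 2 and 204 CPM in day 6 (3.69, 3.83 to 6.41), and at 6.17 and 8.83 CPM in day 1 replicate 1 and day 3, so day 6 stood apart from the other 3 treated libraries. Ifit1bl1, a relative of the interferon-induced IFIT genes, showed the same with 6.56 CPM in day 1 replicate 2 and 214 CPM in day 6 (3.76) and 0 and 3.78 CPM. The immunoproteasome subunit Psmb8 was at 8.75 CPM in day 1 replicate 2 and 110.2 CPM in day 6 (2.68).

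The interferon-induced transmembrane proteins had another pattern. Ifitm1 was at 98.4 CPM in day 1 replicate 2 and 736 CPM in day 6 (2.78, 2.60 to 3.22) in squamous cells, with 204 and 827 CPM in day 1 replicate 1 and day 3. In columnar cells it was at 147 and 117 CPM (-0.30), and in non-epithelial cells at 924 and 775 CPM (-0.25). Ifitm3 was at 1318 CPM in day 1 replicate 2 and 3906 CPM in day 6 (1.56, 1.48 to 1.65), and at 1303 and 590.4 CPM (-1.13) in columnar cells. Its level in squamous cells of replicate 1 and day 3 was 2669.9 and 2866 CPM, so both later libraries were above both day 1 libraries, by little for day 3. Ifitm3 and its neighbours Ifitm1 and Ifitm2 are close relatives, so reads can be split between them. Ifi27, a further interferon gene, had 16 and 298 UMIs (17.5 and 70.9 CPM) and was under the expression limit. Lrig1, a marker of stem cells in skin and gut, had 6 and 42 UMIs and was under it too.

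Promoters of the interferon genes are shown because these genes were higher together in day 6. The windows are the 250 bases before the gene start in RefSeq (GRCm38.p6), written 5′ to 3′ on the strand of the gene, with matches to GAAA, any 2 bases and GAAA again, on either strand, in capitals. These letters are the core of the interferon-stimulated response element, and a match is a description of letters, not a site. The Gbp2 window is chr3:142620413-142620662 on the plus strand, with the match 59 to 50 bases before the start, read on the opposite strand. B2m is at chr2:122147437-122147686 on the plus strand (139 to 130 bases before the start), and Ifit1bl1 at chr19:34601969-34602218 on the minus strand (104 to 95 bases before the start, opposite strand).
Gbp2: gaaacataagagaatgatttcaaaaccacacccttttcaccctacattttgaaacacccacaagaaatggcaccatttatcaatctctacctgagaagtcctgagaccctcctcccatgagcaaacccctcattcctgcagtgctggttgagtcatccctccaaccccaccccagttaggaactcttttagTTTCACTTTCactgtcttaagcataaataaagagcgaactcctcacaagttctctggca
B2m: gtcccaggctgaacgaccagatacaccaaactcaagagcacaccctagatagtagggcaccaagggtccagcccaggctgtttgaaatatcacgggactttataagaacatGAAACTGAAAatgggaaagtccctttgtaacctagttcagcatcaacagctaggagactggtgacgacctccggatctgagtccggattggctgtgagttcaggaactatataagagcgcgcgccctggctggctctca
Ifit1bl1: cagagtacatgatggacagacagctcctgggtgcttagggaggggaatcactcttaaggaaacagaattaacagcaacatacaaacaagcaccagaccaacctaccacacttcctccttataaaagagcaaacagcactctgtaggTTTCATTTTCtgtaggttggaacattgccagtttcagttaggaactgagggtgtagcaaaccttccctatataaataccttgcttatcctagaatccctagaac
Gbp2 and B2m are members of the lists, Ifit1bl1 is not, and each of the 3 printed windows is one that holds the letters. Of 20 interferon and MHC genes that were higher, 17 had a RefSeq promoter here and 4 of these held the letters (B2m, Gbp2, H2-T23 and Ifitm2), beside 936 of 27025 genes in all (3.46%; 2.98% of 32851 windows). Among all higher genes it was 10 of 132 with a promoter (7.58%) and among all lower genes 9 of 166 (5.42%), Trim30a being one of the latter. For the genes over the expression limit it was 89 of 2941 with a promoter (3.03%). The letters TGANTCA, which include the AP-1 element and were searched on both strands, stood before 16 of the 132 higher and 18 of the 166 lower genes, 12.1% and 10.8%. They stood before 7.82% of all genes and 5.98% of the genes over the expression limit with a promoter. Of the 3 printed windows that of Gbp2 held them too, outside the capitals.

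Of 27 mucosal defense genes 8 were over the expression limit, 3 of them higher and 1 lower. Ltf, lactoferrin, the iron-binding protein of secretions and of neutrophil granules, was at 378 CPM in day 1 replicate 2 and 4516 CPM in day 6 (3.54), with 265 and 552 CPM in day 1 replicate 1 and day 3, so day 6 stood above the other 3. Columnar cells held 22.5 and 530.1 CPM of it, and non-epithelial cells 10.5 and 319. Pigr, the carrier of secretory antibodies, was at 30.6 CPM in day 1 replicate 2 and 164 CPM in day 6 (2.10) and the acute-phase protein Saa1 at 15.3 CPM in day 1 replicate 2 and 196 CPM in day 6 (3.03), and their changes in columnar cells were 2.70 and 4.11. Defb14, a beta-defensin, was lower with 90.8 CPM in day 1 replicate 2 and 23.1 CPM in day 6 (-1.61) and 3.09 and 2.52 CPM in the single index libraries. Of 12 measured genes of anal gland and skin appendage 5 were over the expression limit and 3 of these higher, among them the hair and nail type keratin Krt84 with 95.2 CPM in day 1 replicate 2 and 447 CPM in day 6 (2.12) and Muc4, a membrane mucin, with 2.19 CPM in day 1 replicate 2 and 121 CPM in day 6, from 2 UMIs at day 1 (counting interval of the log2 ratio 3.93 to 8.84).

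Of 30 p53 targets 11 were over the expression limit. Of these, 5 were lower and none higher in squamous cells (median -0.94), beside 6.07% of all genes lower. The median was -1.33 in columnar cells. The comparison with day 1 replicate 1 gave 3 lower and none higher, with a median of -0.09. Cdkn1a, the p21 inhibitor of the cell cycle, was at 729.5 CPM in day 1 replicate 2 and 219 CPM in day 6 (-1.69), with 651 and 870.1 CPM in day 1 replicate 1 and day 3, so day 6 stood below the other 3. Plk2 (-1.37), Zmat3 (-1.28) and Ccng1 (-1.23) were lower too. Phlda3 alone of the 11 had a change above 0, at 376 CPM in day 1 replicate 2 and 518 CPM in day 6 (0.45) in squamous cells and -1.62 in columnar cells.

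Cell cycle genes showed small differences. None of the 11 S phase genes over the expression limit passed the fold limit (median 0.35), and of 15 G2 and M phase genes 2 were higher, Hjurp and Birc5 (median 0.47). These medians had the other sign against day 1 replicate 1 (-0.22 and -0.19). Top2a, a topoisomerase of dividing cells, was at 120.3 CPM in day 1 replicate 2 and 228 CPM in day 6 (0.87), and replicate 1 held 207 CPM. The 80 cytoplasmic ribosomal protein genes over the expression limit had a median of 0.45 in squamous and -0.14 in columnar cells. None of 12 cholesterol synthesis genes passed the fold limit (median -0.10), and the 68 nuclear genes of the respiratory chain had a median of 0.23.

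Other groups held few genes past the fold limit. Of 11 endoplasmic reticulum stress genes over the expression limit 2 were higher, Herpud1 with 143 CPM in day 1 replicate 2 and 467 CPM in day 6 (1.64) and the secretory pathway factor Xbp1 (1.13). Immediate early genes had 2 of 13 lower (Klf6, -1.22, and Jun, -1.04), and heat shock genes 2 of 13 lower (Hsp90aa1, -1.04, and Hspb1, 1114 and 551 CPM). Among 18 hypoxia and glycolysis genes Aldoa (1.08) and Car12 (1.07) were higher and Ndrg1 (-1.26) and Pkm (-1.16) lower. Of 19 fetal-like regeneration and YAP target genes Plaur (-1.91) and Tnfrsf12a (-1.73) were lower and none higher (median -0.15), whereas against day 1 replicate 1 the list had 4 higher and 1 lower and the median turned to 0.45. The S100 family had S100a4 (-1.31) and S100a9 (-1.37) lower of 10, and the serine protease inhibitors and kallikreins Serpinb2 (-1.86) of 9. In the WNT list Cd44 and Sox4 (-1.15) were lower of 7, and in the Notch list Maml2 (1.27) was higher of 7. The 3 interleukin-1 genes over the expression limit were within the fold limit, but 2 were higher against day 1 replicate 1. Among 7 claudin and tight junction genes Cldn1, with 86.4 CPM in day 1 replicate 2 and 16.9 CPM in day 6 (-1.84), Cldn4 (-1.15) and Tjp1 were lower (median -0.66, and 0.06 against day 1 replicate 1). The hypoxia and glycolysis median also turned, from 0.28 to -0.16.

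Much of the change in squamous cells was shared with columnar cells of the same libraries. In columnar cells 255 of 4153 genes were higher (6.14%) and 498 lower (12.0%), with a median of -0.17. With TMM library factors in place of plain CPM the numbers were 467 and 258 in columnar and 220 and 195 in squamous cells, since every change moved up by 0.39 and 0.12 on the log2 scale. Of the 180 genes higher in squamous cells, 119 were over the expression limit in columnar cells too. There 69 were higher, 47 within the fold limit and 3 lower. Of the 232 lower genes 151 were over it in columnar cells, of which 74 were lower, 71 within the fold limit and 6 higher. Across 3291 genes the 2 changes had a Pearson r of 0.604, and the points share libraries, depth and free RNA. In non-epithelial cells 126 of the 180 and 159 of the 232 were over the expression limit, and 66 and 60 passed the fold limit in the same direction. Of the 180 and 232 genes, 51 were higher and 38 lower past the fold limit in all 3 cell types alike. How many genes were over the expression limit in all 3 was not counted, so these 2 numbers have no share beside them. The hemoglobin and antibody genes described below are among them.

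Some genes past the fold limit in squamous cells had small changes or low levels in columnar cells. Sptssb, a regulatory subunit of the enzyme that starts sphingolipid synthesis, was at 14.2 CPM in day 1 replicate 2 and 208 CPM in day 6 (3.17) and at 24.0 and 17.9 CPM in columnar cells. Lgi2 was at 1.09 CPM in day 1 replicate 2 and 206 CPM in day 6, with 1 UMI at day 1 (counting interval of the log2 ratio 5.08 to 12.87), and at 0.26 and 6.86 CPM in columnar cells. Rerg, a RAS-like growth inhibitor, was at 4.38 CPM in day 1 replicate 2 and 102 CPM in day 6 (2.97), with 74.1 CPM in day 1 replicate 1, nearer to day 6. Sox21, a relative of Sox2, was at 35 CPM in day 1 replicate 2 and 96.6 CPM in day 6 (1.24) and at 68.9 and 16.7 CPM in columnar cells, a change in the other direction. Csn1s1, an alpha casein, was among the lower genes with 291 CPM in day 1 replicate 2 and 47.1 CPM in day 6 (-2.40) and 2.43 and 9.29 CPM in columnar cells. These differences between the types were not tested.

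**Figure D3:**
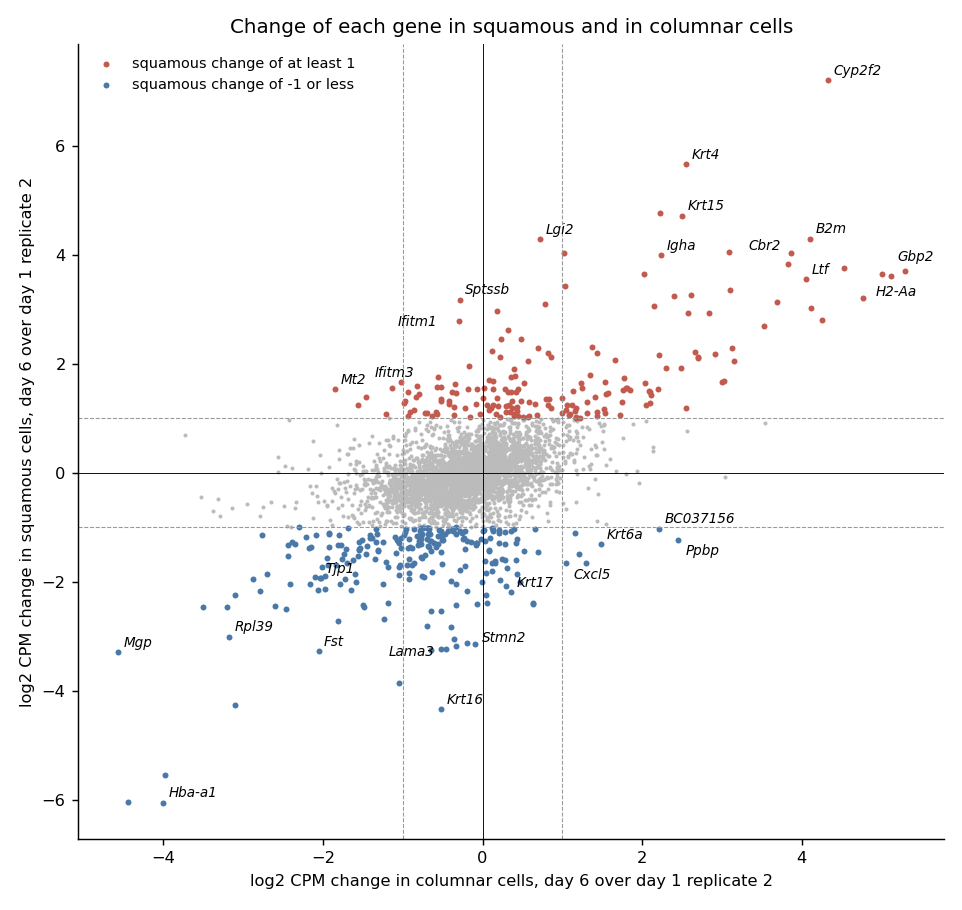
Each point is 1 of 3825 genes over 50 CPM in squamous cells, with its log2 CPM change (day 6 over day 1 replicate 2) in columnar cells on the horizontal and in squamous cells on the vertical axis; dashed lines mark changes of 1 in size. Krt16 and Stmn2 lie low near the columnar zero line, Gbp2, B2m and H2-Aa lie high on both axes, and Ifitm3, Mt2, Krt6a, Ppbp and Cxcl5 have opposite signs in the 2 cell types.

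Squamous transcripts were found at low level in every cell type, and more so in day 6. Non-epithelial cells held Krt14 at 1.39% of its squamous level in day 1 replicate 2 and at 6.75% in day 6. For Krt5 the shares were 1.24% and 9.18%. In day 6 Krt15, Krt13 and Krt4 stood at 14.7%, 15.7% and 18.8% of their squamous level in non-epithelial cells and at 13.8%, 14.2% and 17.3% in columnar cells. In day 1 replicate 2 Krt4 was no higher in squamous (27.3 CPM) than in columnar cells (47.0 CPM).

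Transcripts of other cells moved with the libraries. Antibody genes were higher in the squamous sums, Igha with 159 CPM in day 1 replicate 2 and 2662 CPM in day 6 (3.99) and Jchain with 14.2 CPM in day 1 replicate 2 and 646 CPM in day 6 (4.76), and both were higher still in columnar cells of day 6 (5803 and 1821 CPM). Of 14 lymphocyte genes 7 were at 0 in squamous cells of day 1 replicate 2, Cd3d and Ms4a1 among them, and 1, Cd8a, in day 6, with summed levels of 922 and 9231 CPM. All 4 hemoglobin genes over the limit were lower, Hba-a1 with 1923 CPM in day 1 replicate 2 and 19.0 CPM in day 6 (-6.06) in squamous and 1643 and 93.3 CPM in columnar cells. The summed red blood cell list, all 5 genes detected in both, was 6445 and 85.9 CPM. Macrophage genes summed to 229 and 411 CPM, with Ms4a7 at 0 at day 1. Cybb, an oxidase subunit known from phagocytes, did not change alike in the 3 cell types. In squamous cells it was at 1.09 CPM in day 1 replicate 2 and 172 CPM in day 6, from 1 and 722 UMIs (counting interval of the log2 ratio 4.81 to 12.60). Columnar cells held 5.99 and 22.4 CPM of Cybb (1.02) and non-epithelial cells 322 and 394 (0.28). Mgp, a calcification inhibitor made by stroma, was at 384 CPM in day 1 replicate 2 and 30.2 CPM in day 6 (-3.29) and at 1479 and 52.7 CPM in columnar cells. Of 12 columnar epithelium genes over the expression limit 4 were higher, such as Krt20 with 118 CPM in day 1 replicate 2 and 394 CPM in day 6 (1.66), and of 9 goblet and Paneth-like genes 3 were lower, such as Ang4 with 115 CPM in day 1 replicate 2 and 17.9 CPM in day 6 (-2.16), and 1 higher, Zg16. Against day 1 replicate 1, 7 goblet and Paneth-like genes were lower and none higher (median -1.09). Zg16 was at 120 CPM in day 1 replicate 2, 310 CPM in day 6 and 802.5 CPM in day 1 replicate 1. The part of other cells' RNA in the squamous changes was not tested.

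A few widely expressed genes differed in all 3 cell types. Rpl39, a ribosomal protein, was at 589.5 CPM in day 1 replicate 2 and 64.5 CPM in day 6 (-3.01) in squamous, with -3.17 in columnar and -2.45 in non-epithelial cells. Uqcrb, a respiratory chain subunit, changed by -2.15, -1.65 and -1.20. Tjp1, the tight junction protein ZO-1, was at 2041 CPM in day 1 replicate 2 and 526 CPM in day 6 (-1.93) with -2.03 in columnar cells, and at 111 and 35.3 CPM in the single index libraries. Trim30a, an interferon-inducible TRIM protein, was at 1269 CPM in day 1 replicate 2 and 184 CPM in day 6 (-2.72) and at 6.17 and 6.31 CPM there, so for both genes either dual index library lay above either single index library.

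Shares of squamous cells were compared after each cell was thinned to 1000 UMIs, which left 170 squamous cells of day 1 replicate 2 and 623 of day 6. Intervals are exact 95% binomial intervals. Non-epithelial cells, with UMI medians of 2220.5 and 2622 before thinning, serve as the background. A UMI of Krt15 was found in 7.06% (3.70 to 12.0) of cells at day 1 and 64.2% (60.3 to 68.0) at day 6, against 3.14% and 31.4% of non-epithelial cells, which should lack the transcript. Unthinned, the squamous shares were 16.5% and 87.5%. In day 6 the squamous share of Krt15 was thus over the background. Cyp2f2 had a UMI in 0 of 170 cells at day 1, which at this thinned depth allows a share of cells with a UMI of up to 1.76% (floor of 3 counts). Unthinned, 2.35% of these cells had one. The thinned share at day 6 was 62.6% (58.7 to 66.4), with 25% of non-epithelial cells. Cbr2 was found in 6.47% (3.27 to 11.3) and 63.7% (59.8 to 67.5) of squamous cells, beside 0.286% and 21.4% of non-epithelial cells. In day 1 replicate 1, 18.75%, 16.7% and 14.6% of 48 squamous cells had a UMI of Krt15, Cyp2f2 and Cbr2. The share for Krt4 at day 6 was 42.9% (38.9 to 46.9), and 32.9% in non-epithelial cells, nearer to each other than for Krt15. For the MHC genes the background was above the squamous share, as for H2-Aa with 37.1% of squamous and 63.6% of non-epithelial cells (the latter include immune cells, which make these proteins).

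Krt16, Krt17 and U90926 were also found in a smaller share of cells in day 6 than in day 1 replicate 2. Krt16 had a UMI in 34.7% (27.6 to 42.4) and 5.30% (3.67 to 7.36) of squamous cells. Krt17 was found in 67.6% (60.1 to 74.6) and 27.9% (24.4 to 31.6), and U90926 in 46.5% (38.8 to 54.3) and 4.82% (3.27 to 6.80). In day 1 replicate 1 and day 3, the shares were 14.6% and 11.9% for Krt16 and 18.75% and 43.8% for Krt17. For U90926 they were 6.25% and 8.46%. Replicate 1 thus lay below day 6 for Krt17 and near it for U90926. Krt6a, in contrast, had a UMI in 94.7% and 88.8% of squamous cells and in 53.6% of non-epithelial cells in day 6. The Trp63 share was 15.3% (10.2 to 21.6) and 32.1% (28.4 to 35.9), with 0.714% in non-epithelial cells of day 6, and that of Sox2 5.29% (2.45 to 9.81) and 19.1% (16.1 to 22.4). In day 1 replicate 1 and day 3 the shares were 22.9% and 10.4% for Trp63, and 6.25% and 8.46% for Sox2. Among the 623 thinned cells of day 6, 400 had Krt15, 267 Krt4 and 157 both, while 110 had Krt4 without Krt15. In day 1 replicate 2, 38 of 170 cells had both Krt16 and Krt17, and in day 6 14 of 623.

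**Figure D4:**
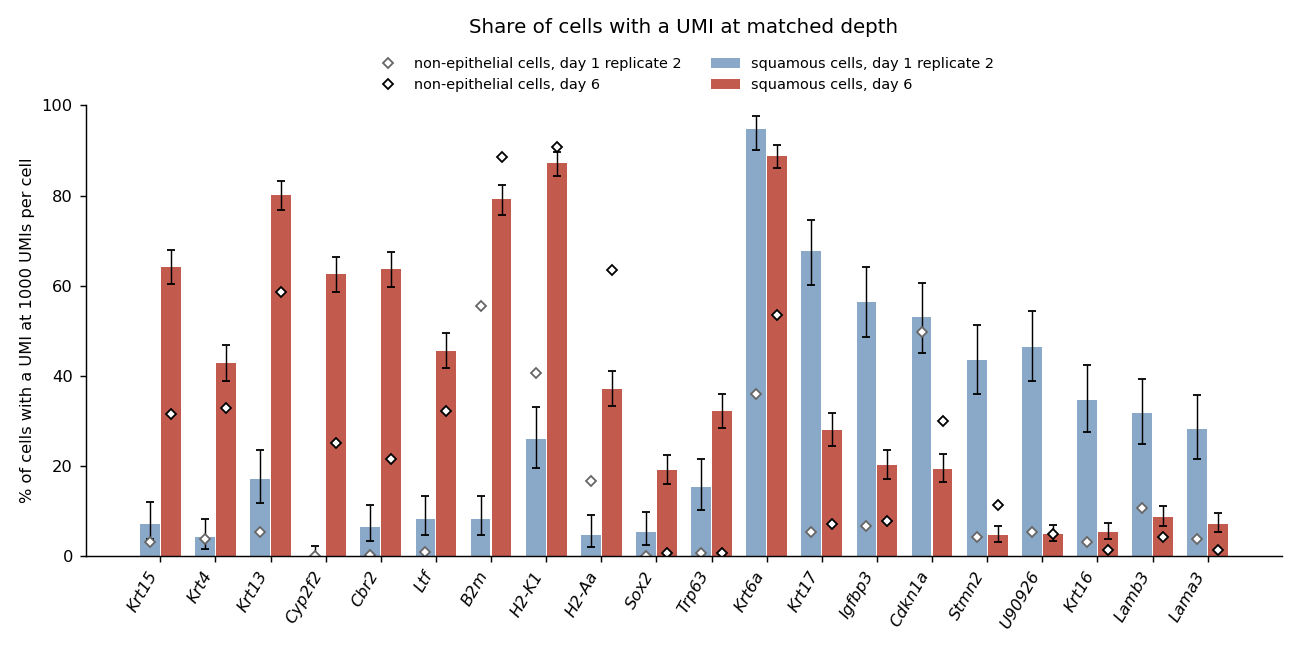
Percent of squamous cells with at least 1 UMI after thinning each cell to 1000 UMIs, for day 1 replicate 2 (170 cells) and day 6 (623 cells), with exact 95% binomial intervals; open diamonds give the same share in non-epithelial cells of each library. Genes from Krt15 to Trp63 stand higher in day 6 and genes from Krt17 to Lama3 stand higher in day 1 replicate 2, while Krt6a is at 94.7% and 88.8%. Day 1 replicate 1 is not drawn, and its squamous shares of Krt17 (18.75%) and Lama3 (6.25%) lie below day 6. B2m, H2-K1 and H2-Aa are more frequent in non-epithelial than in squamous cells of day 6.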

How the data were processed

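inDrop libraries were aligned by the authors with dropEst to mouse GRCm38, and the deposited tables hold raw UMI counts per gene and cell barcode, with no normalization. Barcodes with at least 500 genes and at most 15% mitochondrial counts were kept, the limits of the study. The squamous, columnar and non-epithelial rules (non-epithelial: at least 3 UMIs of the 6 immune and stromal genes and under 10 of either keratin sum) were applied to raw counts, and counts were summed per library and cell type. CPM, the expression limit (mean of 50 CPM), the 10 CPM added before log2 and the fold limit of 1 were the same in every cell type. Poisson intervals are exact, ratio intervals conditional binomial and without the 10 CPM, so the change of a gene with few UMIs can lie outside its interval. No test was made with 1 library a side. The members and lists were chosen with earlier results of these data known.

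Named genes are the 15 largest changes in each direction, the 10 in each direction that differ most from columnar cells, per list the extreme members and the 3 of highest level, and genes the study names. The other list members were named after their values were seen, and some members are not reported here by name. Scripts were tested on simulated data. Python 3.11.15, numpy 2.4.6, pandas 2.3.3, scipy 1.17.1 and, for TMM factors, edgeR 4.0.16 in R 4.3.3 were used. RefSeq promoters (GRCm38.p6) were matched by symbol. The files do not separate close gene copies. The summed counts were 914292 and 4201414 UMIs, so that 1 UMI weighed more in day 1. The untreated stroma library served only for the count of squamous cells and sex-linked transcripts.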

Additional observations from a re-analysis of the deposited data

Results flagged for a closer look

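In 9 genes over the expression limit in both cell types the squamous and columnar sums of the same libraries changed past the fold limit in opposite directions from day 1 replicate 2 to day 6. With 1 library a side the difference between the cell types was not tested. Higher in squamous and lower in columnar cells were Ifitm3 (1.56 against -1.13, log2), Mt2 (1.53 against -1.84) and Hopx, a homeodomain-only protein (1.66 against -1.02). Hopx was at 31.7 CPM in day 1 replicate 2 and 121 CPM in day 6 in squamous cells, and at 83.3 and 66.8 CPM in day 1 replicate 1 and day 3.

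Lower in squamous and higher in columnar cells were Krt6a (-1.31 against 1.48), Krt6b (-1.66 against 1.29), Cxcl5 (-1.65 against 1.04), Ppbp (-1.24 against 2.45), BC037156 (-1.03 against 2.21) and Crip1 (-1.11 against 1.16), the last outside the rule for named genes and added after its values were seen. In columnar cells Krt6a was at 313 and 892 CPM, which is 1.90% and 13.5% of its squamous level, beside a non-epithelial level of 2.78% and 14.6%. Ppbp was at 91.3 and 544 CPM in columnar cells and Cxcl5 at 125 and 269. The part of free RNA in these values was not tested. With day 1 replicate 1 in place of replicate 2, Cxcl5, Ppbp, Krt6b and BC037156 changed direction in squamous cells. Ifitm3, Mt2, Hopx and Krt6a kept theirs but did not pass the fold limit. Mt2 was at 1093 CPM in day 1 replicate 1 and 841 CPM in day 3, beside 423 and 1239 CPM in the dual index pair.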

How the results depend on the processing

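Of 15 alternative settings, those that kept the cells and the libraries moved counts through the gene filter and the scaling. Higher and lower squamous genes (180 and 232) became 432 and 428 with no expression limit, 301 higher at a limit of 20 CPM, 59 and 72 at 200 CPM, and 104 and 134 with 50 CPM added. Columnar genes (255 and 498) became 458 and 1088 with no limit, 858 lower at 20 CPM, 94 and 75 at 200 CPM, 246 lower with 50 CPM added, and 467 and 258 with TMM factors. TMM shifted every squamous change by 0.12 and every columnar change by 0.39, giving 220 higher and 195 lower squamous genes, and centring on the median gave 197 and 212, so the excess of lower genes turned with TMM.

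A limit of at most 2 columnar UMIs per cell left 8 and 26 of the 170 and 639 squamous cells, with 691 higher and 1093 lower genes, and turned Cd44 (0.07), Hspb1 (0.27), Tnc (1.28), Ifitm2 (-0.07), Psmb10 (-0.37) and Slc7a11 (-1.52). With day 1 replicate 1 in place of replicate 2 the counts were 214 and 263, but 43 of 84 named genes that could be compared were past the fold limit in the same direction, against 1178 of 1245 gene values over the other 14 settings. The directions of Apoe (-0.38), BC037156 (0.33), Cxcl5 (0.07), Krt6b (0.35), Ppbp (2.87), Serpinb2 (0.84), Slc7a11 (-0.83), Tjp1 (2.15) and Zg16 (-1.34) turned. Of 636 list medians recomputed, 459 were within counting error. The sign of 50 differed from the reported median, 12 of these among the 43 with day 1 replicate 1, and in 4 of the 50 the reported median was at least 1 in size: chemokines with no limit (0.05), and sex-linked genes at 2 columnar UMIs (-3.92), with no limit (-1.88) and at 20 CPM (-2.33). The cause was not tested. No paired analysis was possible because each side is 1 library. Day 1 depth limits genes under about 50 CPM.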
